A study of Mus musculus with 5 samples.

Results

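The genes described here are the NF-kB subunits Nfkb1, Nfkb2, Rel, Rela and Relb, the inhibitors Nfkbia, Nfkbib and Nfkbie, and the nuclear inhibitor-like genes Nfkbiz and Bcl3. They were taken by symbol from the table of cellular genes, where all 10 were found among 21259 genes. All 10 also passed the filter on low values, a mean of at least 10 normalized reads over the libraries, which 14337 genes passed. The cells were NIH3T3, an immortalized mouse fibroblast line, and those of both groups stably expressed a dCas9 CRISPR activator, a Cas9 that binds DNA without cutting and raises transcription nearby. One group received plasmids for a scramble sgRNA (2 libraries) and the other for an sgRNA that targets the LINE-1 promoter (3 libraries), and both were collected 48 h later. There was no untransfected group. The labels do not say whether libraries of a group came from separate cultures, so each p-value is about differences among these libraries, which may be technical.

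NF-kB is a family of dimeric transcription factors that share a DNA-binding Rel homology region. In resting cells, the inhibitors IkB-alpha, IkB-beta and IkB-epsilon hold the dimers in the cytoplasm. In the canonical pathway the IKK complex marks these inhibitors for destruction, and in the non-canonical pathway the kinase NIK leads to processing of p100, the product of Nfkb2, into p52. Much of this control acts on proteins, which RNA does not measure, but many family members are themselves transcribed under NF-kB control. In fibroblasts the pathway is best known for the response to TNF, interleukin-1 and bacterial products.

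The values are normalized read counts made by the authors, and dividing each by the step of its library gave whole reads, 30681384 to 45596490 per library. Counts of the members lay between 223 and 7099 reads. Fibroblast markers summed to 768806 and 823897 normalized reads in scramble and 537306 to 563319 in LINE-1 sgRNA libraries, mostly from Col1a1, Col1a2 and Fn1. Of 12 tested fibroblast markers 10 were lower with LINE-1 sgRNA, against 25.4% of all tested genes. Fap, at 1.75 to 19.3 normalized reads, was too scarce to be tested. The summed level of the leukocyte markers was far below that of the fibroblast markers. Their 15 genes summed to 1217 and 1232 in scramble and 1465 to 1530 in LINE-1 sgRNA libraries. Csf1r, Cd14 and Cd68 hold most of this signal, and none of the 15 was at 0 in every library. Of 12 tested leukocyte genes, 7 were higher and none lower, against 18.2% and 25.4% of all tested genes. LINE-1 repeat names moved unequally. L1MdTf_I stood at 329 and 313 normalized reads in scramble and at 655, 717 and 643 in LINE-1 sgRNA libraries. L1MdA_I stood at 340 and 327 against 671, 729 and 653, and L1MdGf_I at 343 and 335 against 671, 730 and 654. The sum of the 25 L1Md names, a far larger value, overlapped between the groups (321593 and 304971 against 300213, 262724 and 305366).

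Of the 10 members, 4 passed an adjusted p below 0.05 in limma. Nfkbie and Relb rose, and Bcl3 and Nfkbiz fell. Among all tested genes 43.5% passed, so 4 of 10 is near the background and says nothing particular of the family. The groups did not overlap for 5 members, 3 higher and 2 lower, against 61.8% of all tested genes (24.6% higher and 37.2% lower). The median log2 change was 0.01 over the members and -0.06 over all tested genes. The changes of Nfkbie, Nfkbiz and Bcl3 kept their direction and their call in all 15 alternative settings and libraries left out, and that of Relb did not.

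**Figure D1:**
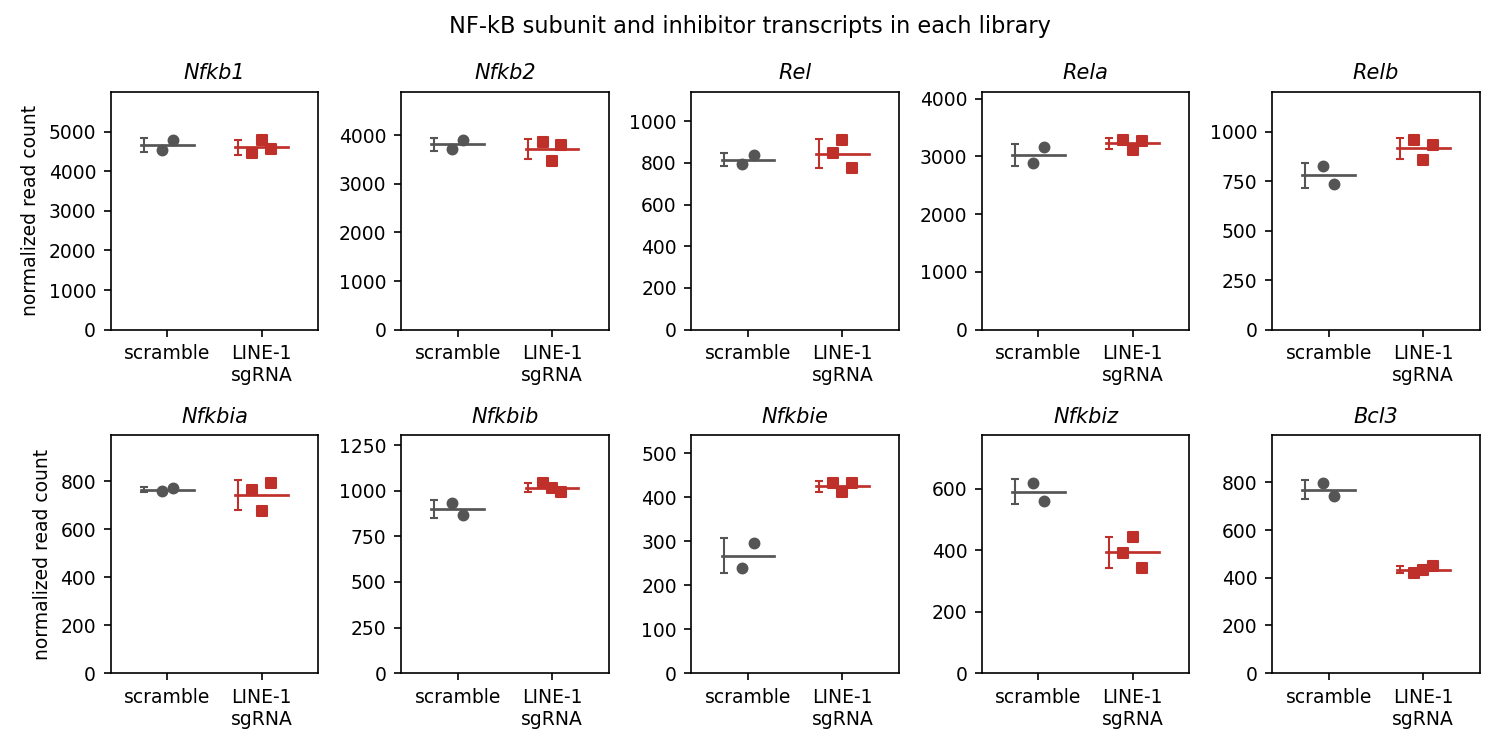
Normalized read counts of each member in 2 scramble libraries (grey circles) and 3 LINE-1 sgRNA libraries (red squares), each panel on its own axis from 0; lines are group means and bars are SD. The groups lie apart for Relb, Nfkbib, Nfkbie, Nfkbiz and Bcl3 and overlap for the others.

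Among the subunits, transcripts of the canonical dimer moved little. Nfkb1, which encodes p105 and its product p50 (GRCm38 chr3:135584655-135691547), stood at 4546 and 4792 normalized reads in scramble and at 4447, 4798 and 4554 in LINE-1 sgRNA libraries. The groups overlapped, and the log2 change was -0.02 (95% interval -0.14 to 0.09, adjusted p = 0.77). Rela, which encodes the transactivating subunit p65 (chr19:5637483-5648130), stood at 2889 and 3160 in scramble and at 3290, 3109 and 3273 in LINE-1 sgRNA libraries. Its groups also overlapped, with LINE-1 sgRNA library 2 below scramble library 2, and its log2 change of 0.09 (interval -0.03 to 0.22) did not pass (adjusted p = 0.21). The Rela estimate was 0.18 with libraries scaled to their table totals and 0.15 in edgeR, where it passed (adjusted p = 0.018 and 0.049), and adjusted p was 0.018 to 0.76 over all settings.

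Rel, which encodes c-Rel, a subunit best known from lymphoid cells (chr11:23736847-23770970), stood at 792 and 837 normalized reads in scramble and at 848, 912 and 774 in LINE-1 sgRNA libraries. The LINE-1 sgRNA libraries spanned the scramble values, and the log2 change was 0.05 (interval -0.13 to 0.23, adjusted p = 0.66).

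Of the subunits of the non-canonical pathway, Relb passed and Nfkb2 did not, with no test of the difference between them. Nfkb2, which encodes p100 and its product p52 (chr19:46304320-46312385), stood at 3711 and 3910 normalized reads in scramble and at 3863, 3470 and 3802 in LINE-1 sgRNA libraries, with a log2 change of -0.04 (interval -0.16 to 0.09, adjusted p = 0.62). Its groups overlapped, LINE-1 sgRNA library 2 being the lowest. Exons of Nfkb2 share 299 bases with Psd, whose log2 change was -0.11 (adjusted p = 0.22), and 531 bases with AC114539.1, which is not among the genes of the table, both on the other strand, and reads there cannot be assigned without the strand. Relb, whose product pairs with p52 (chr7:19606217-19629438), stood at 824 and 734 in scramble and at 961, 855 and 931 in LINE-1 sgRNA libraries. All LINE-1 sgRNA libraries were above both scramble libraries, by the least for library 2. Relb rose by 0.23 on the log2 scale (SE 0.083, adjusted p = 0.031), and 21.7% of tested genes rose by at least as much. Relb did not pass in the absence of the variance trend (0.23, adjusted p = 0.099). It also missed the threshold when scramble library 2 was left out (0.15, adjusted p = 0.24), and likewise for LINE-1 sgRNA libraries 1 (0.20, 0.13) and 3 (0.22, 0.079).

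Of the 3 cytoplasmic inhibitors, Nfkbie passed the test. Nfkbia encodes IkB-alpha, the inhibitor that NF-kB induces as its rapid negative feedback (chr12:55489410-55492647). It stood at 759 and 772 normalized reads in scramble and at 763, 675 and 793 in LINE-1 sgRNA libraries. The LINE-1 sgRNA libraries lay on both sides of the scramble ones, and the log2 change was -0.05 (interval -0.23 to 0.14, adjusted p = 0.70).

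Nfkbie encodes IkB-epsilon, another feedback inhibitor, known for slower induction than IkB-alpha (chr17:45555703-45563169). It stood at 239 and 295 normalized reads in scramble and at 432, 411 and 432 in LINE-1 sgRNA libraries. Every LINE-1 sgRNA library was above both scramble libraries, and the scramble libraries differed more among themselves than the LINE-1 sgRNA ones did. The mean was 1.59-fold higher, 267 ± 40.1 (SD, n = 2) against 425 ± 12.2 (SD, n = 3). Nfkbie rose by 0.68 on the log2 scale (SE 0.11, adjusted p = 0.00014), a rise that 10.6% of tested genes matched or exceeded. The estimate was 0.52 without scramble library 1 and 0.83 without scramble library 2.

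Nfkbib, which encodes IkB-beta (chr7:28758251-28767512), stood at 935 and 864 normalized reads in scramble and at 1042, 1013 and 993 in LINE-1 sgRNA libraries. The groups did not overlap, but the log2 change of 0.18 (interval 0.02 to 0.33) did not pass (adjusted p = 0.061). Adjusted p lay between 0.013 and 0.29 over the settings, and Nfkbib passed in edgeR (0.24, adjusted p = 0.017) and DESeq2 (0.23, 0.023), with libraries rescaled by TMM (0.23, 0.020) or by table totals (0.26, 0.013), with the replicate block (0.19, 0.041) and without scramble library 1 (0.23, 0.045). Because the third LINE-1 sgRNA library has no partner, the block estimate rests on 2 pairs, and without that library and the block Nfkbib did not pass (0.19, 0.089). Its exons share 42 bases with Sirt2 and 314 with Ccer2 on the other strand. Sirt2 rose by 0.18 (adjusted p = 0.015) and Ccer2 had a log2 change of 0.29 (adjusted p = 0.56), and the part of the shared bases in the Nfkbib value was not tested.

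RefSeq promoter windows (GRCm38.p6, 250 bases before to 50 after the start) were at hand for 7 of the 10 members, all but Nfkb1, Relb and Nfkbiz. They were searched on both strands for the kappaB consensus, the letters to which NF-kB dimers bind, and for a looser form of it that fixes only the outer GGG and CC and takes in every consensus match. The consensus was in a window of 5 of the 7 members, Nfkb2, Rel, Nfkbia, Nfkbie and Bcl3, and in none of Rela and Nfkbib. The looser form was in a window of each of the 7 but Nfkbib. Over all genes with a window, 5.14% held the consensus and 53.5% held the looser form. Upstream stretches of Nfkbia and Nfkbie are shown because both inhibitors carry a match and only the latter passed the test, with no test of the difference between them. Each ends at the base before the RefSeq start, and capitals mark the consensus match, on the other strand in Nfkbia and on the gene's strand in Nfkbie.
Nfkbia chr12:55492648-55492767, minus strand: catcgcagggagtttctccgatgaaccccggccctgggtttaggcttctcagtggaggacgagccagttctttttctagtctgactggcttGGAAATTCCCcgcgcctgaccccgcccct
Nfkbie chr17:45555580-45555699, plus strand: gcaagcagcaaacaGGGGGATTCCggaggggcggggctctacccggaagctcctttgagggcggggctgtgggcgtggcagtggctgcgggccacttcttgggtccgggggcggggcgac
The match begins 29 bases before the start in Nfkbia and 106 bases before it in Nfkbie. A match of letters is a description of the window and shows no binding.

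Both nuclear inhibitor-like genes fell, Bcl3 the most of all members. Bcl3 encodes an IkB-like protein that works in the nucleus with p50 or p52 homodimers (chr7:19808462-19822770). It stood at 798 and 742 normalized reads in scramble and at 418, 435 and 450 in LINE-1 sgRNA libraries. The groups lay far apart and the libraries of each were close together. The mean went from 770 ± 39.5 to 434 ± 15.8, a change of -43.6%, and Bcl3 fell by 0.82 on the log2 scale (SE 0.090, adjusted p = 1.1e-06). Only 1.29% of tested genes fell by as much. Its exons share 161 bases with the antisense gene Gm16175, which is not among the genes of the table.

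Nfkbiz encodes IkB-zeta, an inducible nuclear coactivator that p50 recruits to a subset of inflammatory genes (chr16:55811375-55838899). It stood at 619 and 562 normalized reads in scramble and at 392, 445 and 344 in LINE-1 sgRNA libraries. All LINE-1 sgRNA libraries were below both scramble libraries, and library 3 was the lowest. The mean went from 590 ± 40.4 to 394 ± 50.5, and Nfkbiz fell by 0.59 (SE 0.11, adjusted p = 0.00040), a fall that 4.42% of tested genes matched or exceeded. Nfkbid, the gene of another nuclear IkB (IkB-NS), was scarce at 30.02 ± 9.03 and 20.3 ± 4.07 normalized reads, and its log2 change of -0.52 did not pass (adjusted p = 0.22).

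The consensus site of Bcl3 and those of the subunits Nfkb2 and Rel, which did not pass, are shown with their flanks, since they let members with different results be compared by their letters. Capitals mark the match, which in Nfkb2 and Rel is a pair of overlapping matches that read on both strands. In Bcl3 the match reads only on the strand opposite to the letters shown.
Bcl3 chr7:19822734-19822763, minus strand: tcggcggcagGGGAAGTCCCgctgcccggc
Nfkb2 chr19:46304689-46304717, plus strand: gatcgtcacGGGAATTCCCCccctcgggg
Rel chr11:23771042-23771070, minus strand: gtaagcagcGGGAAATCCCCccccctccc
The first base of the match lies 39 bases before the RefSeq start in Nfkb2, 92 bases before it in Rel and at base 3 of the transcript in Bcl3. The first of 3 Nfkb2 windows holds a further separate match. The second window holds 2 matches and the third holds 1, which also lies in the second. Members with a match include 1 that rose, 1 that fell and 3 that did not pass. Relb and Nfkbiz, which passed, had no window and are not in this tally.

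**Figure D2:**
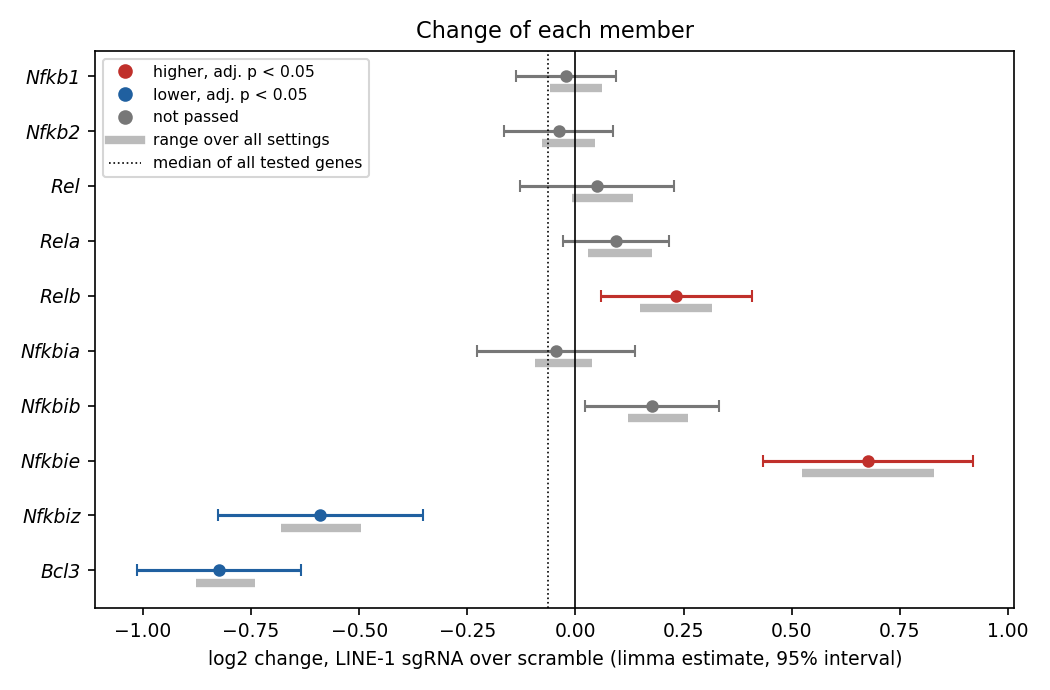
Log2 change of each member with LINE-1 sgRNA over scramble, as the limma estimate with its 95% interval; grey bars give the range of the estimate over all settings and libraries left out, and the dotted line is the median of all tested genes at -0.06. Nfkbie at 0.68 and Bcl3 at -0.82 lie farthest from 0, and the bars of Nfkb1, Nfkb2, Rel and Nfkbia cross 0.

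Per exon length, Rela and Nfkb2 were the most abundant members. In scramble libraries, levels per kilobase of exon were 984 ± 62.4 normalized reads for Rela, 831 ± 30.6 for Nfkb2 and 387 ± 14.4 for Nfkb1, against 201 ± 16.4 for Relb and 109 ± 4.25 for Rel. Rela was above 86.8% of tested genes on this scale and Nfkbie above 32.9%. The inhibitors stood at 475 ± 5.54 for Nfkbia, 415 ± 22.9 for Nfkbib and 87.7 ± 13.2 for Nfkbie, and the nuclear genes at 311 ± 16.0 for Bcl3 and 118 ± 8.05 for Nfkbiz. The libraries of Nfkbiz and Rel overlapped, so the order of this pair is not resolved. All annotated exons of a gene were counted in its length, which at 12061 bases for Nfkb1 may exceed the length of its main transcript and so lower its level.

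With LINE-1 sgRNA the order per length changed at its lower end. Bcl3, at 175 ± 6.38, lay below Relb at 236 ± 14.0, where in scramble it had been above. Nfkbie, the lowest member in scramble, reached 140 ± 4.02 and lay above Rel at 113 ± 9.21, and Nfkbiz became the lowest at 78.4 ± 10.1. Nfkbia at 462 ± 38.2 and Nfkbib at 469 ± 11.4 overlapped.

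Summed per length, the pools moved by different amounts, given as values with no test. The subunit pool was 2445 and 2580 normalized reads per kilobase in scramble and 2643, 2509 and 2616 in LINE-1 sgRNA libraries, which overlap. The cytoplasmic inhibitor pool was 981 and 975 against 1096, 1021 and 1092. The nuclear pool was 446 and 412 against 247, 264 and 250. Within a library the cytoplasmic inhibitors amounted to 39.0 ± 1.64% of the subunit pool in scramble and 41.3 ± 0.551% with LINE-1 sgRNA, and the nuclear genes to 17.1 ± 1.60% and 9.82 ± 0.630%. Nfkbie made up 8.97 ± 1.38% of the cytoplasmic inhibitor pool in scramble and 13.1 ± 0.146% with LINE-1 sgRNA, and the ratio of Nfkbia to Nfkbie went from 5.48 ± 0.758 to 3.30 ± 0.185. These shares do not depend on the scaling between libraries. In bulk RNA, a change in the share of cells that use a gene and a change in RNA per cell cannot be told apart.

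**Figure D3:**
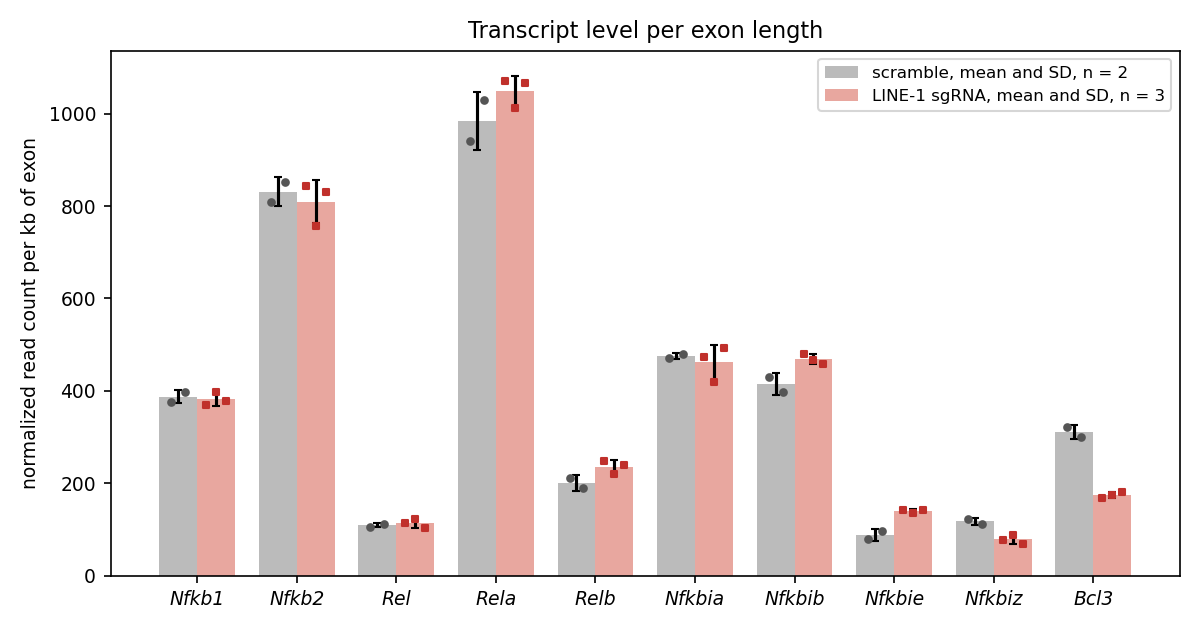
Normalized read count per kilobase of exon for each member, as bars for the mean with SD over 2 scramble (grey) and 3 LINE-1 sgRNA libraries (red), with points for the libraries. Rela and Nfkb2 stand highest in both groups, and Bcl3 falls from 311 to 175.

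The rest of the pathway was followed in 6 lists of 116 genes, of which 103 were tested. Of these 19 passed as higher and 34 as lower, against 18.2% and 25.4% of all tested genes. The median log2 change over the lists was -0.06, as over all tested genes. The number lower depended on the scaling between libraries, with 25 after TMM rescaling and 21 with table totals. Over all genes, 41.7% of calls were higher as deposited, 53.2% after TMM rescaling and 60.6% with table totals.

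Receptors and adaptors of the pathway passed in both directions. Besides the genes described below, Tnfrsf1a, Tlr2, Tlr4, Irak1, Irak2, Irak4, Traf5, Map3k7, Tab1 and Rbck1 passed as lower. Tlr3, Ticam1, Tradd, Birc3 and Rnf31 passed as higher. These further genes were named after their values were seen. Of 29 receptors and adaptors tested, 7 were higher and 12 lower, against 18.2% and 25.4% of all tested genes, with a median of -0.02. With table totals the numbers were 8 and 5. The number lower was 6 without scramble library 2, 7 without LINE-1 sgRNA library 1 or without the variance trend, 7 with TMM, and 6 in edgeR and in DESeq2. Il1r1, the signalling receptor of interleukin-1, fell by 0.50 (from 3888 ± 148 to 2750 ± 48.5, adjusted p = 1.2e-06). Its co-receptor gene Il1rap fell by 0.65 (from 1477 ± 29.6 to 940 ± 27.3, adjusted p = 7.1e-07). The adaptor ligase gene Traf6, used by interleukin-1 and Toll-like receptors, rose by 0.44 (from 994 ± 100.1 to 1348 ± 22.3, adjusted p = 0.00012). Traf1, an adaptor that is itself an NF-kB target, was nearly absent in scramble, at 10.7 and 3.64 normalized reads, and reached 123, 116 and 137 with LINE-1 sgRNA. The Traf1 change was 4.10 (SE 0.33, adjusted p = 2.5e-08), from as few as 4 recovered reads in a scramble library. Its scramble mean of 7.17 was below the filter level of 10, which Traf1 passed only through its LINE-1 sgRNA values. The estimate was 3.17 with pseudocount 8, 4.77 without scramble library 1 and 3.43 without scramble library 2.

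The core IKK complex did not pass in any member. Among 8 kinase genes and their scaffolds 2 passed as higher and none as lower, against 18.2% and 25.4% of all tested genes. The median was -0.03. Ikbkg, the gene of the regulatory subunit NEMO, stood at 4416 ± 40.7 and 4145 ± 108 normalized reads (log2 -0.09, adjusted p = 0.17), and it shares 418 exon bases with G6pdx on the other strand. Chuk and Ikbkb, the genes of the catalytic kinases, had log2 changes of 0.05 and -0.06 (adjusted p = 0.47 and 0.45), and were singled out after their values were seen. The genes that rose belong to the IKK-related branch. Ikbke, the gene of IKK-epsilon, a kinase that acts in interferon induction, rose by 0.63 (from 591 ± 1.28 to 914 ± 50.9, adjusted p = 7.3e-06). Tbkbp1, the gene of an adaptor of the related kinase TBK1, rose by 1.79 (from 108 ± 6.26 to 378 ± 33.6, adjusted p = 6.6e-09). Azi2, which encodes another TBK1 adaptor, had a log2 change of -0.06 (adjusted p = 0.44).

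In the non-canonical pathway 4 of 11 tested genes were higher and 3 lower, against 18.2% and 25.4% of all tested genes. The median was -0.14. Traf3, the gene of the adaptor that keeps NIK low, rose by 0.59 (from 2265 ± 67.2 to 3411 ± 148, adjusted p = 2.9e-07). Tnfrsf12a, the receptor of TWEAK, rose by 0.58 from a high level (8284 ± 329 to 12435 ± 779, adjusted p = 4.8e-07). Ltbr, the lymphotoxin-beta receptor, fell by 0.27 (from 4070 ± 83.5 to 3383 ± 165, adjusted p = 0.0011). Cd40, a receptor best known from B cells and other antigen-presenting cells, went from 6.42 and 2.73 normalized reads to 127, 106 and 103 (log2 4.42, SE 0.32, adjusted p = 5.7e-09). Of 12 tested leukocyte markers 7 were higher, against 18.2% of all tested genes. Among them Laptm5 stood at 6.42 and 6.36 normalized reads in scramble and at 46.3, 60.2 and 42.9 with LINE-1 sgRNA. Ptprc stood at 3.21 and 6.36 and at 30.1, 27.7 and 5.25. Laptm5 and Ptprc, too, had scramble means below the filter level. Csf1r (log2 -0.15), Lyz2 (-0.30), Cd14 (-0.05), Itgam (0.375) and Cd79a (0.42) did not pass. The part of leukocyte markers in the Cd40 value was not tested.

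Of 15 tested negative regulators 2 were higher, Tnip1 and Tnip2, and 3 were lower, with a median of -0.01. The shares over all tested genes were 18.2% higher and 25.4% lower. With table totals 4 were higher, and with the replicate block 5 were lower. Tnip2, whose product ABIN-2 binds A20 and p105, stood at 533 and 484 normalized reads in scramble and at 2341, 2391 and 2208 with LINE-1 sgRNA. The groups were far apart, and Tnip2 rose by 2.18 (SE 0.071, adjusted p = 1.0e-13). Tnip1, the gene of ABIN-1, rose by 0.59 (from 1216 ± 11.8 to 1831 ± 106, adjusted p = 1.7e-06). Tnfaip3, the gene of A20 itself and a classic NF-kB target, was singled out after its values were seen. It stood at 113 and 120.0 in scramble and at 160, 157 and 126 with LINE-1 sgRNA, with groups that did not overlap and a log2 change of 0.33 that did not pass (adjusted p = 0.12). Pdlim2, which encodes a ligase that ends nuclear p65 activity, fell by 0.73 (from 744 ± 87.4 to 447 ± 37.4, adjusted p = 1.9e-05), and Rnf11, a partner of A20, fell by 0.29 (from 7804 ± 265 to 6392 ± 126, adjusted p = 0.00024).

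Of 10 IkB-like and coactivator genes, 1 was higher and none lower, against 18.2% and 25.4% of all tested genes. Ep300, the gene of the acetyltransferase p300, a coactivator of p65, rose by 0.44 (from 4496 ± 802 to 6057 ± 241, adjusted p = 0.00024). Scramble library 1 was the lowest, and the estimate was 0.26 without it and 0.62 without scramble library 2. Ep300 missed the threshold without the variance trend (adjusted p = 0.052). Nkap had a log2 change of 0.09 (adjusted p = 0.42) and Ncoa3 of 0.11 (adjusted p = 0.25), and Ncoa3 passed without scramble library 2 (0.22, 0.033).

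Of 41 genes that NF-kB is known to induce, 30 were tested, with 3 higher and 16 lower and a median of -0.26. Over all tested genes 18.2% were higher and 25.4% lower, with a median of -0.06, and with table totals more were higher (3280) than lower (2136). The number lower was 13 in edgeR and in DESeq2, 12 with table totals and 14 with TMM, and 3 were higher in each of these. No test of the list as a set was made. The chemokine gene Cxcl5 fell by 1.03 (from 552 ± 10.2 to 271 ± 26.0, adjusted p = 1.0e-06), Vcam1, an adhesion molecule for leukocytes, by 0.59 (from 2768 ± 123 to 1836 ± 63.6, adjusted p = 4.7e-07), and Plau, the urokinase gene, by 0.61 (from 1883 ± 7.57 to 1233 ± 36.6, adjusted p = 5.9e-07). The monocyte chemokine gene Ccl2, singled out after its values were seen, stood at 612 and 576 in scramble and at 370, 331 and 364 with LINE-1 sgRNA (log2 -0.74, adjusted p = 1.2e-05). The collagenase gene Mmp13 went the other way, from 26.8 and 13.6 normalized reads to 144, 135 and 136 (log2 2.78, SE 0.25, adjusted p = 1.2e-07). The other genes that rose were Csf3 and Ccl5, named after their values were seen. Csf3 stood at 7.49 and 9.09 in scramble and at 52.5, 48.7 and 42.9 with LINE-1 sgRNA (log2 2.40, adjusted p = 7.7e-06). Its scramble mean was below the filter level of 10, which it passed only through its LINE-1 sgRNA values. Ccl5 stood at 97.4 and 69.1 in scramble and at 113, 108 and 135 with LINE-1 sgRNA (log2 0.52, adjusted p = 0.038). Ptgs2, the cyclooxygenase-2 gene, also singled out afterwards, was abundant, at 15470 and 16851 in scramble and 12911, 12784 and 12285 with LINE-1 sgRNA (log2 -0.35). The cytokine genes Il6 and Tnf were scarce, at 39.5 ± 3.17 and 32.3 ± 1.86 for Il6 and 25.04 ± 0.584 and 22.6 ± 8.60 normalized reads for Tnf, and neither passed (adjusted p = 0.41 and 0.66). Icam1 and Sele, named after their values were seen, were also scarce. Icam1, at 6.42 and 12.7 in scramble and 21.6, 14.9 and 21.0 with LINE-1 sgRNA, did not pass (adjusted p = 0.063). Sele, at 0 and 2.73 against 12.3, 14.2 and 16.6, was below the filter and not tested. With no filter 4 targets passed as higher and 16 as lower. Of 12 tested fibroblast markers 10 were lower as well. Among them Lum went from 1202 and 1142 to 585, 560 and 585, and Pdgfra from 6635 and 6644 to 4548, 4406 and 4535. Sparc (log2 0.09, adjusted p = 0.24) and Pdgfrb (0.03, adjusted p = 0.69) did not pass. The part of these markers in the changes of the targets was not tested.

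**Figure D4:**
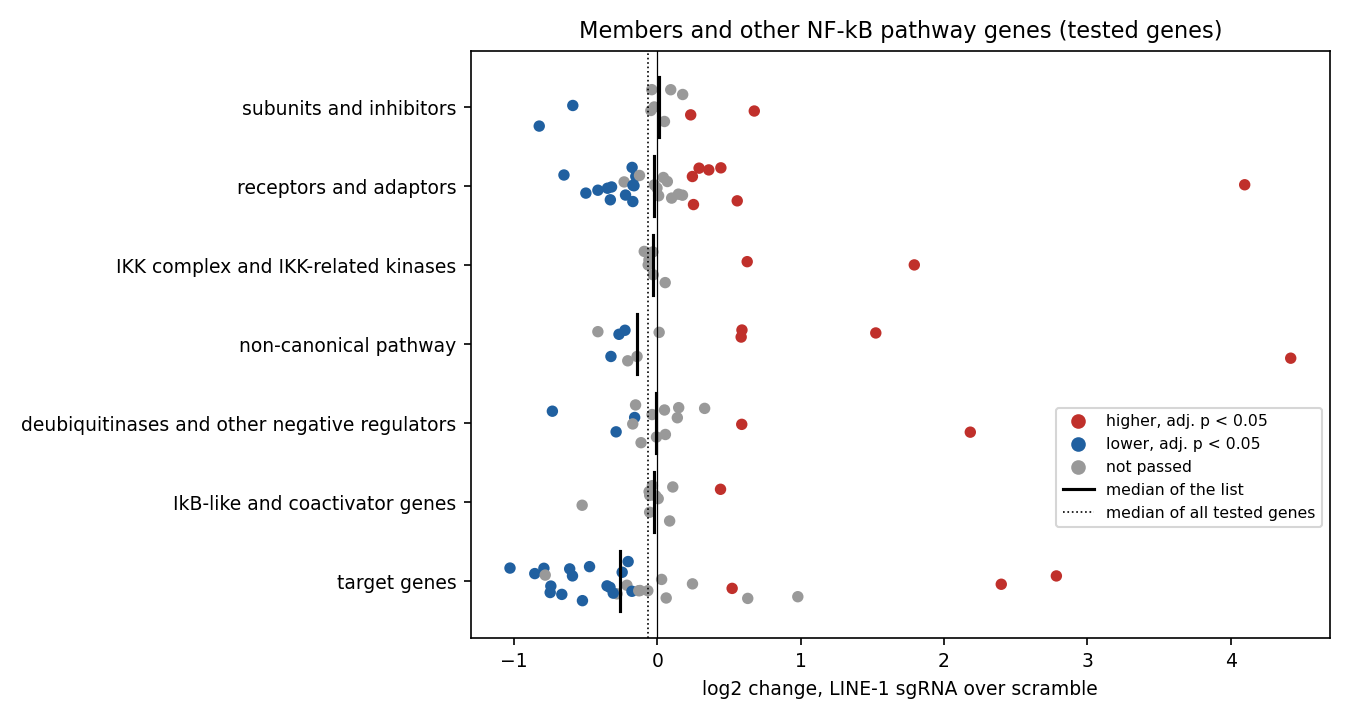
Log2 change with LINE-1 sgRNA over scramble for each tested gene of the members and of 6 pathway lists, coloured by whether it passed; black bars are list medians and the dotted line is the median of all tested genes. The targets have a median of -0.26, and Traf1, Cd40, Mmp13, Csf3 and Tnip2 lie above 2. Of these, Traf1, Cd40 and Csf3 had scramble means below the filter level of 10.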

How the data were processed

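The authors deposited normalized counts, a signal per gene and per repeat name with 1 column for each library. Per the submitters' processing notes, DESeq2, SAMtools 1.9, bedtools 2.27.1, Bowtie2 2.2.9 and STAR 2.5.3a were used on mm10 and GRCm38. What each tool did, the strand setting and how reads were counted is not given in the sources used. Dividing a library by its smallest nonzero value turned 100% of its values into whole reads, with a tolerance of 0.0001 reads. Groups and replicate numbers came from the sample titles.

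All genes with a mean of at least 10 were fitted together with limma 3.58.1 in R 4.3.3 on log2(value + 1), with a variance trend and no further scaling. The mean was over all libraries, so genes scarce in scramble could be tested through their LINE-1 sgRNA values alone. Counts of genes passing as higher include such genes. The threshold was an adjusted p (Benjamini-Hochberg, over all 14337 genes) below 0.05. Log2 changes are on the log2(value + 1) scale, which understates changes of scarce genes. SDs are over 2 scramble and 3 LINE-1 sgRNA libraries. The fit was also run on simulated counts in which few genes changed, as many up as down. Such a run cannot check how the calls depend on the scaling between libraries. Alternatives were pseudocounts 0.5 and 8, no filter or a mean of at least 50, TMM rescaling, table totals, no variance trend, a replicate block, each library left out, and edgeR 4.0.16 and DESeq2 1.42.0 on recovered reads, where 5622 and 5238 genes passed. Exon lengths and positions are from GENCODE (GRCm38), promoters from RefSeq. The named genes are all members and, of each list, up to 4 with the smallest p. Members and lists were chosen with earlier results of these data known.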

Additional observations from a re-analysis of the deposited data

How the results depend on the processing

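The number of members passing as higher was 2; it was 4 with table totals and in edgeR, 1 without the variance trend, and 1 to 3 when a library was left out, while the number lower was 2 throughout. Pathway genes passing as lower numbered 34, and 21 with table totals. Of all tested genes 3637 passed as lower, against 2136 with table totals and 2332 without the trend. The sign turned for changes near 0 that passed under no setting, apart from Ncoa3, which passed without scramble library 2. For Nfkb1 the value was 0.037 in edgeR, 0.035 in DESeq2, 0.030 after TMM and 0.061 with table totals. For Nfkb2 these were 0.019, 0.018, 0.013 and 0.044, and for Nfkbia 0.014, 0.012, 0.0065 and 0.038. When a library was left out, Nfkb1 ranged from -0.060 to 0.016, Nfkb2 from -0.077 to 0.0089, Rel from -0.0073 to 0.11, Nfkbia from -0.093 to 0.023 and Ncoa3 from -0.0073 to 0.22. Azi2 was at 0.019 with table totals. The cause was not tested. Table totals moved the median of all genes from -0.06 to 0.02. Of 150 comparisons of members with alternatives, 121 kept direction and call.

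The replicate block rests only on the number in the titles; same-numbered libraries had correlations of deviations of -0.008 and 0.066. The block leaves LINE-1 sgRNA library 3 without a partner, so its estimates come from the other libraries. With it, 3 members passed as higher, 2 as lower, and over all genes 2667 higher and 3906 lower. The smallest count of a member was 223 reads. The small changes of Relb, Nfkbib and Rela passed or missed the threshold depending on the scaling, the tool or the libraries used.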
